A study of Rattus norvegicus with 24 samples.

Results

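The subunit genes of the glutamate and GABA receptors were described across 24 rat brain libraries. Members were chosen by gene symbol, from the rows of the count table named as a Gria, Grin, Grik, Grid, Grm, Gabr or Gabbr subunit. The choice was made with earlier results of these data known. The members described are 40 of the 29539 genes in the table, 23 for glutamate receptors and 17 for GABA receptors. Of these, 36 passed a filter on low counts, set at a CPM (read counts scaled to a common library total) of 0.918 in at least 8 libraries. The other 4 were Gabra6, Gabrp, Gabrr1 and Gabrr3, with totals of 57, 28, 66 and 30 counts over all 24 libraries. Gria3 and Gabre were not analysed here.

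The series concerns rats with stab wounds of the forebrain, a model of traumatic brain injury, and SKF-81297, an agonist of D1-like dopamine receptors. Poly(A) RNA of brain tissue was sequenced from 3 groups of 8 libraries, titled Normal Control, Vehicle and SKF. By the series description, the agonist was injected into the peritoneum on each of 3 days, with the first dose 1 h after injury. Sample titles say no more of the Vehicle group than its name, and they do not call the Normal Control group sham operated. They give no strain, age, brain region or time of collection. Nor do they say that the 8 samples of a group came from 8 animals, so each p-value measures the spread between these samples, which may be technical.

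Glutamate opens ion channels of the AMPA, NMDA and kainate classes and also acts through slower metabotropic receptors coupled to G proteins. GABA opens chloride channels built from GABA-A subunits, most often a pair of alpha, a pair of beta and a gamma or delta subunit, and acts through metabotropic GABA-B receptors. The subunits in a receptor set its conductance, its kinetics and its place at or away from the synapse, and expression of several subunits differs between neurons, glia and brain regions.

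Libraries held between 8911339 and 12383368 counts each, and 14421 genes were tested. The library Normal Control 6 stood apart in markers of brain regions. Its summed TPM (a level per transcript length) of 10 striatal markers was 5252, against a median of 993 over the Normal Control group. It had the lowest sum of 12 thalamic markers, 68.9 against a group median of 530, and a sum of 6 choroid plexus markers of 11.4 against 5184. Normal Control 4 held RNA of skeletal muscle, with a marker sum of 2545 against a group median of 13.0. Member results that turn on these libraries are given with and without them.

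The most abundant of the 40 members per transcript length was Gabbr1, with a median of 433 TPM over the 24 libraries. Grin1 followed at 282 TPM, Gria2 at 155, Gabbr2 at 141 and Grik5 at 131. Gabbr1, Gabbr2 and Grin1 are the obligatory GABA-B and NMDA subunits. At the other end, Gabrr2, Gabrq and Grm6 had medians of 1.31, 1.03 and 0.964 TPM, and the 4 members under the filter lay between 0.0612 and 0.193 TPM.

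The first comparison set Vehicle against Normal Control. Most subunit genes were lower in Vehicle: 28 of 36 tested members (77.8%) fell, 2 rose, and 6 did not pass the test. Over all 14421 genes tested, 27.1% were called lower and 26.9% higher. The median log2 fold change was -0.64 over the 36 members, a fold of 0.640, and -0.01 over all genes tested. In 12 members (33.3%) every Vehicle library lay below every Normal Control library, which was so for 7.50% of all genes tested. No member had every Vehicle library above every Normal Control library, which was so for 1680 of the 14421 genes tested. In bulk tissue, fewer cells of a type and less RNA per cell cannot be told apart.

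**Figure D1:**
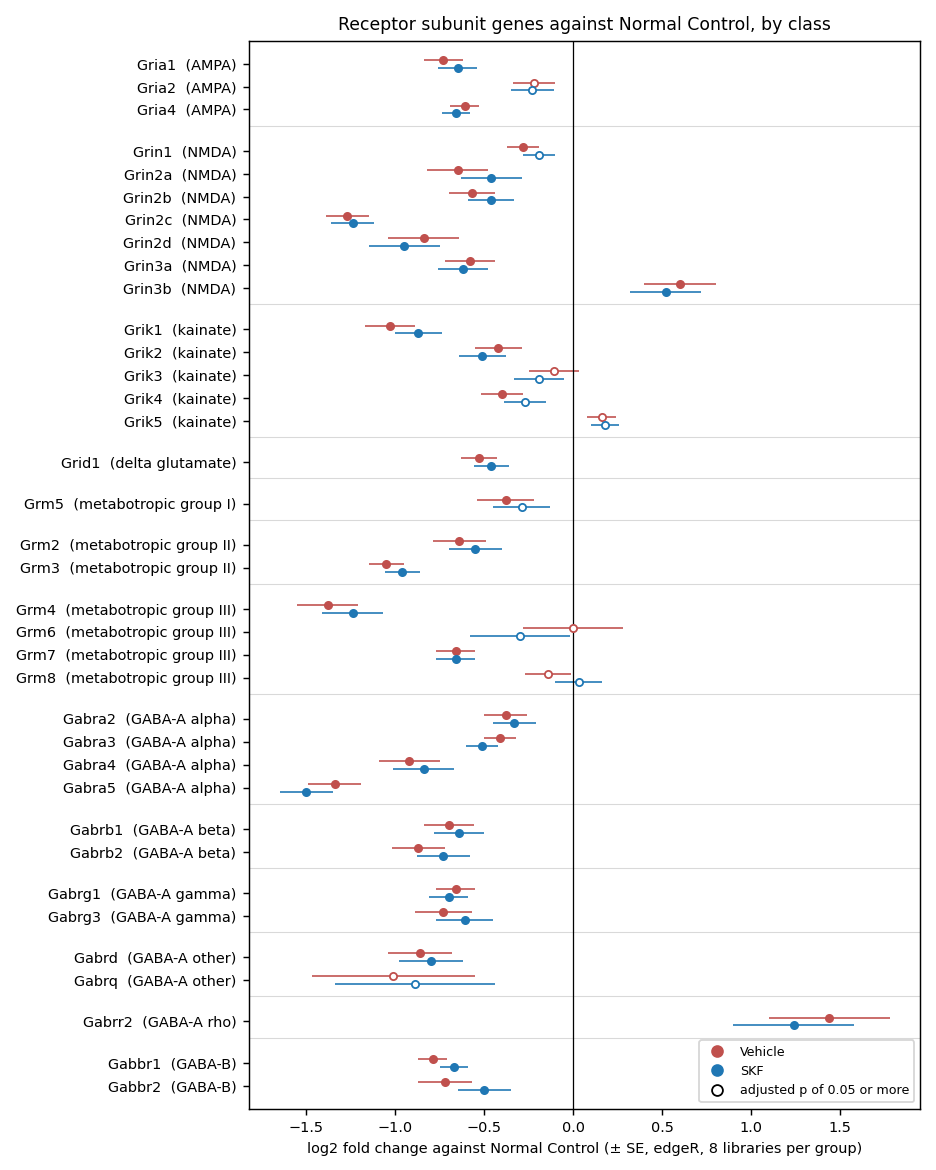
The log2 fold change against Normal Control (x axis, ± SE from edgeR, 8 libraries per group) is drawn for the 36 tested members, ordered by receptor class (y axis), for Vehicle in red and SKF in blue. Filled points passed an adjusted p of 0.05; 28 red and 25 blue filled points lie left of 0, and Grin3b and Gabrr2 lie right of it in both colours.

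Among AMPA receptor subunits, which carry most fast excitation, 2 of 3 fell in Vehicle, with a class median of -0.61. Gria4, a subunit of fast-gating receptors, ran from 104 to 130 CPM in Normal Control (median 120), from 57.5 to 94.0 in Vehicle (median 79.6) and from 65.3 to 88.6 in SKF (median 72.4). Each Vehicle and SKF library thus lay below each Normal Control library, a log2 fold change of -0.61 ± 0.08 (SE) in Vehicle (edgeR adjusted p = 3.03e-07) and -0.66 ± 0.08 in SKF (adjusted p = 1.00e-07). Gria1 behaved alike on this scale, with a Normal Control median of 150 CPM, a Vehicle median of 97.4 and an SKF median of 105, no overlap with Normal Control, and log2 fold changes of -0.73 ± 0.11 and -0.65 ± 0.11. Gria2, the subunit that makes AMPA channels nearly impermeable to calcium, ran from 348 to 688 CPM in Normal Control (median 476), from 312 to 482 in Vehicle (median 450) and from 344 to 579 in SKF (median 394). Its groups overlapped, and its log2 fold changes of -0.22 ± 0.12 (adjusted p = 0.131) and -0.23 ± 0.12 (adjusted p = 0.119) did not pass. Without Normal Control 5 both passed, at -0.28 (adjusted p = 0.0489) and -0.29 (adjusted p = 0.0444), and without SKF 3 the SKF value passed at -0.31 (adjusted p = 0.0283).

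The share of Gria2 among the 3 AMPA subunits measured was compared within each library, on TPM. It is built from the same 3 genes as the fold changes above and is not independent of them. Gria2 made up 48.4% ± 2.54 (SD, n = 8) of the summed TPM of Gria1, Gria2 and Gria4 in Normal Control, against 56.6% ± 2.21 of the Vehicle sum and 55.6% ± 3.13 of the SKF sum. The Normal Control libraries ran from 44.5% to 51.7% and the Vehicle libraries from 53.3% to 60.1%, with no overlap. The SKF libraries, from 50.4% to 60.6%, overlapped Normal Control at the low end. The difference was 8.13 ± 1.19 percentage points (SE) in Vehicle by a two-sided exact permutation test (p = 0.0001554, the smallest that 12870 assignments can give, adjusted over 9 tests 0.00140) and 7.15 ± 1.42 in SKF (adjusted p = 0.00210). Between SKF and Vehicle it was -0.976 ± 1.35 points (exact permutation adjusted p = 0.622). Gria3 is not in this sum.

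**Figure D2:**
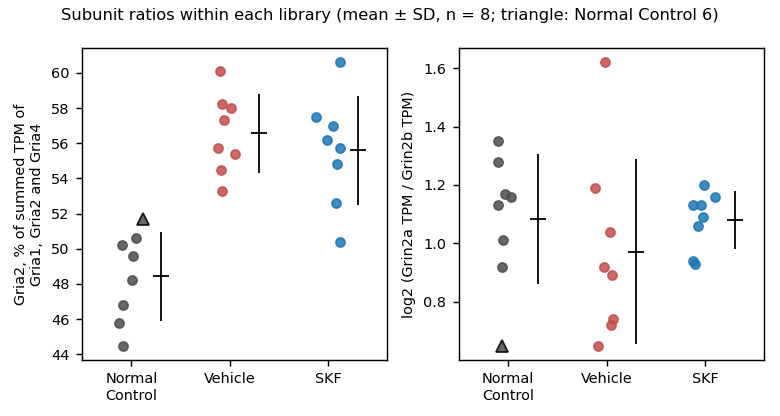
Each point is 1 library, with the mean ± SD (n = 8) beside it: the share of Gria2 in the summed TPM of 3 AMPA subunits (left, %), and the log2 ratio of TPM of Grin2a to Grin2b (right); the triangle is Normal Control 6. All 8 Vehicle libraries lie above all Normal Control libraries on the left, and the groups overlap on the right.

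All 7 NMDA receptor subunit genes passed in Vehicle, 6 of them lower, with a class median of -0.58. Grin1, the subunit that every NMDA receptor needs, had medians of 519 CPM in Normal Control (445 to 618), 448 in Vehicle (304 to 499) and 453 in SKF (388 to 526). Its fall was the smallest of the class, -0.28 ± 0.09 in Vehicle (adjusted p = 0.00705). In SKF, -0.19 ± 0.09 did not pass (adjusted p = 0.0600). The SKF value passed with DESeq2 and with only the 2 groups compared. It also passed when 1 of Normal Control 3 or 4, Vehicle 2 or SKF 3 or 4 was left out. Grin2c, a glutamate-binding subunit known from cerebellum, thalamus and astrocytes, ran from 109 to 150 CPM in Normal Control (median 134), from 43.0 to 66.1 in Vehicle (median 53.5) and from 39.4 to 82.5 in SKF (median 54.8). No Vehicle or SKF library reached the lowest Normal Control library, and the log2 fold changes were -1.27 ± 0.12 (adjusted p = 1.41e-09) and -1.24 ± 0.12 (adjusted p = 2.24e-09). In Normal Control 6, Grin2c was at 133 CPM, within the range of the other 7. The part of tissue make-up in the fall of Grin2c was not tested.

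The 2 main glutamate-binding subunits of the forebrain also fell. Grin2a, the subunit of mature fast-decaying NMDA receptors, had medians of 78.8 CPM in Normal Control (71.8 to 133), 61.6 in Vehicle (34.1 to 81.3) and 62.2 in SKF (50.8 to 82.9), a log2 fold change of -0.65 ± 0.17 in Vehicle (adjusted p = 0.00201) and -0.46 ± 0.17 in SKF (adjusted p = 0.0227), where the call was lost without Normal Control 2 (-0.36, adjusted p = 0.0632). Grin2b, the slower subunit that prevails early in development, had medians of 36.9 CPM (27.6 to 52.9), 24.9 (18.5 to 31.6) and 25.9 (21.7 to 35.4), with log2 fold changes of -0.57 ± 0.13 (adjusted p = 0.000907) and -0.46 ± 0.13 (adjusted p = 0.00606). Both overlapped Normal Control. The log2 ratio of Grin2a to Grin2b TPM averaged 1.09 ± 0.22 over the Normal Control libraries, 0.97 ± 0.32 over Vehicle and 1.08 ± 0.10 over SKF (SD, n = 8). The difference of -0.12 ± 0.14 (SE) between Vehicle and Normal Control did not pass an exact permutation test (adjusted p = 0.607).

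Grin2d and Grin3a also fell in Vehicle, by 0.84 and 0.58 on the log2 scale. Grin3b, a subunit that binds glycine, was the only NMDA member that rose. It was at a low level, 1.82 to 5.96 CPM in Normal Control (median 2.61), 3.14 to 5.91 in Vehicle (median 4.34) and 2.74 to 5.44 in SKF (median 4.18). Its log2 fold change was 0.60 ± 0.20 in Vehicle (adjusted p = 0.0127) and 0.52 ± 0.20 in SKF (adjusted p = 0.0334). The highest Normal Control value was that of Normal Control 6, and the other 7 reached at most 3.06 CPM; without that library the log2 fold changes were 0.83 and 0.74. The SKF call was lost on leaving out any of Normal Control 1, 2, 3, 5, 7 or 8 or SKF 1, 2 or 6, with a lowest value of 0.44 (adjusted p = 0.0753). It was also lost with only the 2 groups compared. Grin3b overlaps the gene Tmem259 in RefSeq, and since it is not given whether reads were counted by strand, part of its reads may belong to that gene. The same limit holds for the other members among the 8 with an overlapping protein-coding gene, which are Gria1, Grin1, Grin2d, Grin3a, Grik1, Grm3 and Grm7.

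As shares of the summed TPM of the NMDA class, Grin1 made up 66.3% ± 2.46 (SD, n = 8) of the Normal Control sum, 74.7% ± 1.73 of the Vehicle sum and 75.1% ± 1.61 of the SKF sum. Grin2c made up 15.5% ± 0.738, 8.84% ± 1.19 and 8.41% ± 1.12. These shares were not tested. The summed TPM of the class ran from 371 to 522 in Normal Control, from 249 to 428 in Vehicle and from 306 to 441 in SKF, with overlap.

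**Figure D3:**
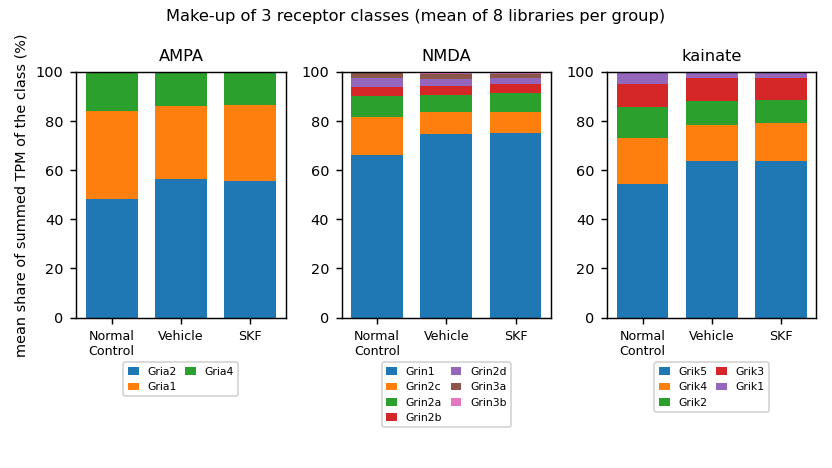
Stacked bars give the mean share (y axis, % of the summed TPM of the class, 8 libraries per group) of each subunit gene of the AMPA, NMDA and kainate classes in Normal Control, Vehicle and SKF (x axis). Gria2, Grin1 and Grik5 take larger shares of their class in Vehicle and SKF, and Grin2c and Grik1 smaller ones.

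Of the 5 kainate receptor subunits, 3 fell in Vehicle and 2 did not pass, with a class median of -0.40. Grik1, a subunit found in many interneurons, ran from 12.0 to 21.2 CPM in Normal Control (median 16.0), from 4.09 to 9.63 in Vehicle (median 8.19) and from 7.25 to 11.0 in SKF (median 8.67). Its groups did not overlap with Normal Control, and the log2 fold changes were -1.03 ± 0.14 (adjusted p = 3.21e-07) and -0.87 ± 0.13 (adjusted p = 4.36e-06). Grik5, a subunit that needs partners such as Grik2, was the most abundant kainate member and did not fall. Its medians were 170 CPM in Normal Control (153 to 226), 195 in Vehicle (160 to 212) and 196 in SKF (165 to 229). With all libraries its log2 fold changes of 0.16 ± 0.08 (adjusted p = 0.0825) and 0.18 ± 0.08 (adjusted p = 0.0513) did not pass. Without Normal Control 6, the highest control at 226 CPM, they were 0.22 (adjusted p = 0.00672) and 0.24 (adjusted p = 0.00350). Both also passed without Vehicle 2, and the SKF value without SKF 6 or SKF 8. With no library left out, Grik5 was called higher in both comparisons by limma voom and by limma on log2 TPM.

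Grik4, which like Grik5 binds kainate with high affinity, had medians of 52.1 CPM in Normal Control (29.4 to 58.7), 37.4 in Vehicle (31.3 to 50.4) and 42.8 in SKF (32.3 to 50.0). It fell in Vehicle by 0.40 ± 0.12 on the log2 scale (adjusted p = 0.00766), and in SKF its value of -0.27 ± 0.12 did not pass (adjusted p = 0.0704). It passed without Normal Control 6, the lowest control at 29.4 CPM (-0.35, adjusted p = 0.00487), and on leaving out SKF 2 or SKF 5 (-0.31 each). Grik2 fell by 0.42, and Grik3, at -0.11 ± 0.14, did not pass (adjusted p = 0.528). The summed TPM of the class had a Normal Control median of 206, a Vehicle median of 218 and an SKF median of 215, and its range of 187 to 226 in Normal Control lay within the range of 170 to 240 in Vehicle. The share of Grik5 went from 54.5% ± 3.04 to 63.8% ± 1.38 and that of Grik1 from 4.79% ± 1.12 to 2.42% ± 0.460 between Normal Control and Vehicle (SD, n = 8, not tested).

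Grid1, a delta receptor and relative of the ionotropic receptors that bridges the synapse by binding cerebellins, ran from 41.7 to 64.7 CPM in Normal Control (median 49.3), from 28.0 to 44.0 in Vehicle (median 33.6) and from 29.0 to 44.0 in SKF (median 36.7). It fell by 0.53 ± 0.10 on the log2 scale in Vehicle (adjusted p = 6.58e-05) and by 0.46 ± 0.10 in SKF (adjusted p = 0.000314). The ranges overlapped with Normal Control at its low end.

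Metabotropic glutamate receptors fell in 5 of 7 cases in Vehicle, with a median of -0.64. Grm5, of group I, which excites through phospholipase C, had medians of 103 CPM (94.3 to 237), 92.5 (72.5 to 113) and 93.5 (80.8 to 122). Its call in Vehicle, -0.38 ± 0.16 (adjusted p = 0.0463), rested on Normal Control 6 at 237 CPM, since the other 7 controls reached at most 125 CPM and without that library the value was -0.17 (adjusted p = 0.140). In SKF, -0.29 did not pass (adjusted p = 0.126). The Vehicle call was also lost on leaving out any of Normal Control 2, Vehicle 1, 2, 3, 4, 6 or 7, or SKF 2, 4 or 5.

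Both group II receptors, which damp transmitter release through inhibitory G proteins, fell. Grm3, found on astrocytes as well as neurons, ran from 98.3 to 118 CPM in Normal Control (median 109), from 40.1 to 71.6 in Vehicle (median 49.5) and from 45.3 to 68.9 in SKF (median 56.3). The groups did not overlap with Normal Control, and the log2 fold changes were -1.05 ± 0.10 (adjusted p = 3.01e-09) and -0.96 ± 0.10 (adjusted p = 1.50e-08). Grm2 fell by 0.64 in Vehicle.

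Group III, mostly presynaptic receptors, was split. Grm4 had the largest fall of all members in Vehicle, from 43.0 to 94.7 CPM in Normal Control (median 71.9) to between 21.0 and 35.7 (median 27.4), with 21.0 to 45.7 in SKF (median 29.5). Its log2 fold changes were -1.38 ± 0.17 (adjusted p = 1.94e-07) and -1.24 ± 0.17 (adjusted p = 1.06e-06), and in Vehicle it did not overlap with Normal Control. Grm7 fell by 0.66. Grm8, in contrast, overlapped throughout, with medians of 10.8 CPM in Normal Control (8.50 to 14.3), 9.91 in Vehicle (8.34 to 12.4) and 11.8 in SKF (7.85 to 13.8), and did not pass at -0.14 ± 0.13 (adjusted p = 0.375) and 0.03 ± 0.13 (adjusted p = 0.846). Grm6, the receptor of retinal bipolar cells, was near the filter and did not pass (-0.00 ± 0.28 in Vehicle).

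**Figure D4:**
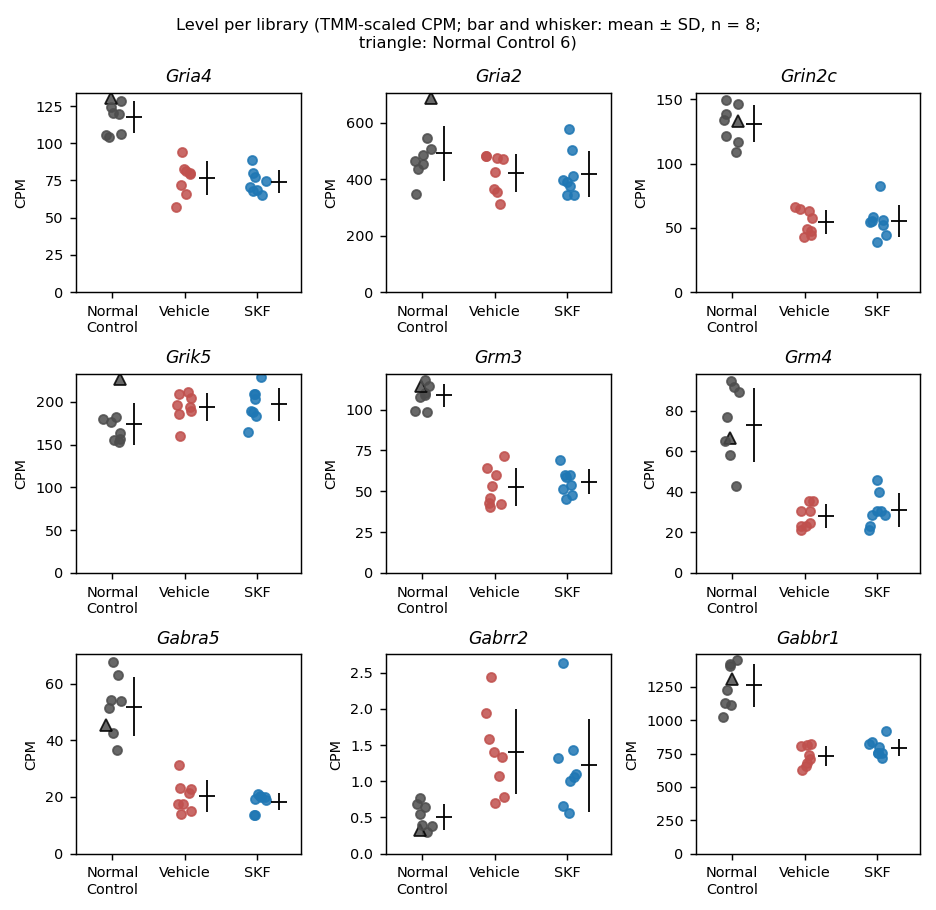
Each point is 1 library in TMM-scaled CPM (y axis, linear from 0), with the mean ± SD (n = 8) beside each group, for 9 members with and without a fall; the triangle is Normal Control 6. Gria4, Grin2c, Grm3, Grm4, Gabra5 and Gabbr1 have every Vehicle library below every Normal Control library, while Gria2 and Grik5 overlap and Gabrr2 is higher in Vehicle and SKF.

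Among GABA-A subunits, 9 of the 11 members tested fell in Vehicle, 1 rose and 1 did not pass, with a median of -0.73. The alpha subunits shape the benzodiazepine response and the place of the receptor. Gabra5, the alpha subunit of extrasynaptic receptors in hippocampus, ran from 36.4 to 67.6 CPM in Normal Control (median 52.6), from 14.1 to 31.4 in Vehicle (median 19.6) and from 13.7 to 21.0 in SKF (median 19.7). Neither group overlapped with Normal Control, and the log2 fold changes of -1.34 ± 0.15 (adjusted p = 1.86e-08) and -1.50 ± 0.15 (adjusted p = 3.66e-09) were the lowest of the GABA-A members described.

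Gabra2, an alpha subunit of forebrain synapses, had medians of 74.7 CPM in Normal Control (65.8 to 117), 65.1 in Vehicle (44.2 to 76.4) and 61.0 in SKF (55.0 to 81.3). It fell by 0.38 ± 0.12 in Vehicle (adjusted p = 0.00899) and by 0.33 ± 0.12 in SKF (adjusted p = 0.0224), and the SKF call was lost without Normal Control 6 (-0.23, adjusted p = 0.0631). Gabra3 and Gabra4 fell by 0.41 and 0.92 in Vehicle.

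Among beta subunits, which form the GABA site together with alpha subunits, Gabrb2 had medians of 95.0 CPM in Normal Control (66.9 to 124), 50.2 in Vehicle (32.4 to 69.8) and 57.4 in SKF (43.9 to 71.1), with log2 fold changes of -0.87 ± 0.15 (adjusted p = 3.53e-05) and -0.73 ± 0.15 (adjusted p = 0.000294). Gabrb1 fell by 0.70 in Vehicle, with no overlap with Normal Control.

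Among gamma subunits, which place receptors at synapses, Gabrg1 ran from 29.8 to 43.5 CPM in Normal Control (median 36.6), from 18.8 to 29.4 in Vehicle (median 23.1) and from 19.0 to 29.2 in SKF (median 21.8), with no overlap and log2 fold changes of -0.66 ± 0.11 (adjusted p = 9.90e-06) and -0.70 ± 0.11 (adjusted p = 4.42e-06). Gabrg3 fell by 0.73 in Vehicle. Gabrd, which replaces gamma in extrasynaptic receptors that carry tonic inhibition, had medians of 70.1 CPM (45.5 to 99.3), 38.4 (25.1 to 59.0) and 39.5 (27.6 to 63.1), and fell by 0.86 ± 0.18 (adjusted p = 0.000364) and by 0.80 ± 0.18 (adjusted p = 0.000800). Gabrq, the theta subunit, was at about 1 CPM and did not pass (-1.01 ± 0.46, adjusted p = 0.0664).

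Gabrr2, a rho subunit known mainly from retina, rose, at a level of few counts. It ran from 0.294 to 0.766 CPM in Normal Control (median 0.470), from 0.699 to 2.44 in Vehicle (median 1.37) and from 0.561 to 2.64 in SKF (median 1.08). Its log2 fold change was 1.44 ± 0.34 in Vehicle (adjusted p = 0.000696) and 1.24 ± 0.34 in SKF (adjusted p = 0.00316). Gabrr2 passed the filter only through the groups where it was high, since 6 Vehicle, 6 SKF and 0 Normal Control libraries reached the minimum, so a difference was built into its being tested.

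Subunit genes of a genomic cluster were set beside each other. By gene order in RefSeq (build GRCr8), Gabrb1, Gabra4, Gabra2 and Gabrg1 lie in this order on chromosome 14. The protein-coding gene Cox7b2 also lies within the cluster. The log2 fold changes of the 4 subunit genes in Vehicle were -0.70, -0.92, -0.38 and -0.66. Values within this cluster thus ran from -0.92 to -0.38, and the differences between neighbours were not tested.

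Both GABA-B subunits, which work only as a pair, fell. Gabbr1, the subunit that binds GABA, ran from 1021 to 1452 CPM in Normal Control (median 1270), from 626 to 821 in Vehicle (median 726) and from 717 to 918 in SKF (median 777). No library of the other groups reached a Normal Control library, and the log2 fold changes were -0.79 ± 0.08 (adjusted p = 1.71e-09) and -0.67 ± 0.08 (adjusted p = 3.65e-08). Gabbr2, the subunit that couples to G proteins, had medians of 424 CPM (237 to 562), 246 (172 to 314) and 297 (195 to 365), with log2 fold changes of -0.72 ± 0.15 (adjusted p = 0.000314) and -0.50 ± 0.15 (adjusted p = 0.00822). Its lowest control was Normal Control 6, at 237 CPM against 314 or more in the other 7. The summed TPM of the pair had medians of 759, 510 and 552.

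The upstream sequences of 3 members are shown to set large falls beside no fall: Grin2c and Gabra5 had the lowest fold changes of the NMDA and GABA-A classes, and Grik5 did not fall. They are the 250 bases before the annotated gene start, from RefSeq (build GRCr8), on the minus strand of chr10:101005139-101005388, chr1:117516607-117516856 and chr1:89794910-89795159, written 5′ to 3′ with a GC box in capitals where one was found.
Grin2c: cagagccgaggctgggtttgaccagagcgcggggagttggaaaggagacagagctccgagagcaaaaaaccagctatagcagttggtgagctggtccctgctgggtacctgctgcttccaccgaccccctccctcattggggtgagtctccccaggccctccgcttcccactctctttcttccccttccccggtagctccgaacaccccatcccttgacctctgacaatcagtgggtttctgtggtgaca
Gabra5: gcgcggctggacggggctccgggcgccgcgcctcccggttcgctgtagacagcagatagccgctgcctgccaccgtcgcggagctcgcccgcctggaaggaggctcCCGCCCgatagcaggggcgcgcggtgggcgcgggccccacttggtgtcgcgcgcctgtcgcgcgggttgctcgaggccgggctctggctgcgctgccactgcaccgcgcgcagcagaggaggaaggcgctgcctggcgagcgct
Grik5: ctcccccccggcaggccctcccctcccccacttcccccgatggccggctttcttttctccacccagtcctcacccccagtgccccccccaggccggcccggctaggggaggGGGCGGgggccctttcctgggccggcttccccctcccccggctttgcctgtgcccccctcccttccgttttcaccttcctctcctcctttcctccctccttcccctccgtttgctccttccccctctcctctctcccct

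RefSeq promoter windows were held for 29 of the 40 members. The GC box, GGGCGG on either strand, was in 10 of these 29 (34.5%) and in 32.4% of 27457 promoters of the same length. The cyclic AMP response element in its full form, TGACGTCA, was in 0 of 29 and in 1.70% of all, and TATAAA was in 2 of 29 (6.90%) and in 13.1% of all. Grin2c held none of these letters, while Gabra5 and Grik5 held 1 GC box each. These matches describe the windows only. The GC content was 59.6% for Grin2c, 76.4% for Gabra5 and 70.8% for Grik5, with a median of 57.6% over the 29 members and 52.0% over all promoters.

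The second comparison asked whether the receptor genes differed between the agonist and the vehicle. In SKF against Vehicle, 0 of 36 members passed edgeR's test, 0 had an unadjusted p under 0.05, and DESeq2 called 0. Over all 14421 genes edgeR called 0% and 715 had an unadjusted p under 0.05. The members' log2 differences, SKF minus Vehicle, ran from -0.30 for Grm6 to 0.22 for Gabbr2, with a median of 0.06 against 0.00 over all genes, and 13 of 36 were negative. The 3 with the smallest p were Gabbr1 at 0.12 ± 0.08 (95% interval -0.04 to 0.27), Gabbr2 at 0.22 ± 0.15 (-0.09 to 0.54) and Grm8 at 0.18 ± 0.13 (-0.09 to 0.44), with edgeR adjusted p-values of 0.939, 0.939 and 0.951. For 30 of 36 members the 95% interval of the difference lay within 0.5 on the log2 scale in either direction. For the members with the largest falls the intervals were -0.22 to 0.27 for Grin2c, -0.45 to 0.15 for Gabra5, -0.21 to 0.49 for Grm4 and -0.13 to 0.30 for Grm3.

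In SKF against Normal Control, which shares its controls with the first comparison, 25 of 36 members (69.4%) fell and 2 rose, where 24.7% of all genes tested were called lower and 25.5% higher. The median log2 fold change was -0.58, against -0.01 over all genes. In 10 members (27.8%) every SKF library lay below every Normal Control library, against 7.11% of all genes. The 2 that rose were Grin3b and Gabrr2, the latter with the limit given above. In the edgeR fit of all 24 libraries, Grin1, Grik4 and Grm5 passed in Vehicle and not in SKF. Their differences between SKF and Vehicle, 0.09, 0.13 and 0.09, did not pass the test.

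Genes that assemble and anchor these receptors, or make and clear their transmitters, were read from the same fit in 7 lists, against 27.1% of all genes called lower and 26.9% higher. Of 19 AMPA and kainate auxiliary subunits, 15 fell in Vehicle and 0 rose, with a median of -0.51. The 2 with the smallest p were Cnih2, a cornichon that promotes AMPA receptor export (-0.90 ± 0.11, adjusted p = 7.81e-08), and Shisa9, which modulates AMPA receptor gating (-0.94 ± 0.12, adjusted p = 2.06e-07). Of 27 excitatory postsynaptic scaffolds, 22 fell, among them Dlgap4 (-0.47 ± 0.07) and the kinase subunit Camk2b (-0.67 ± 0.10), while Homer3, a scaffold that binds group I metabotropic receptors, rose by 0.44 ± 0.11 (adjusted p = 0.00110). The median of this list was -0.43. Of 18 inhibitory scaffolds and GABA receptor partners, 12 fell, with a median of -0.41, led by Gabarapl1 (-0.50 ± 0.05, adjusted p = 4.57e-09) and Insyn1 (-0.88 ± 0.11). Gabarap, which traffics GABA-A receptors and serves autophagy, rose by 0.22 ± 0.05 (adjusted p = 0.000826).

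On the transmitter side, 7 of 8 genes of GABA synthesis, release, uptake and breakdown fell in Vehicle, with a median of -0.75; the call of Slc32a1, the vesicular GABA transporter (-0.44, adjusted p = 0.0166), was lost without Normal Control 4 and 6 (-0.22, adjusted p = 0.121). The enzymes of GABA breakdown had the smallest p: Aldh5a1 fell by 0.81 ± 0.07 (adjusted p = 8.76e-11) and Abat by 0.78 ± 0.07 (adjusted p = 1.08e-10). Of 13 genes of glutamate synthesis, release and uptake, 9 fell and 2 rose, with a median of -0.45. Slc1a2, the main glial glutamate transporter, fell by 1.00 ± 0.10 (adjusted p = 5.70e-09) and the glutamine carrier Slc38a1 by 0.63 ± 0.07. Glul, glutamine synthetase, and the carrier Slc38a2 rose by 0.52 ± 0.06 and 0.34 ± 0.09. Of 6 genes that set the chloride gradient, 3 fell and 1 rose. The kinases Wnk2 and Stk39 fell by 0.42 ± 0.08 and 0.29 ± 0.08, and the chloride exporter Slc12a5 by 0.31 ± 0.09 (adjusted p = 0.00469). Wnk1 rose by 0.12 ± 0.05 (adjusted p = 0.0490), a call lost without Normal Control 4 and 6 (0.09, adjusted p = 0.189). Of 4 glycine receptor subunits, 2 fell, Glra2 by 0.92 ± 0.17 (adjusted p = 5.66e-05) and Glrb by 0.26 ± 0.08. In SKF against Vehicle, edgeR called 0 genes of these lists, and 1, Gabarapl1, had an unadjusted p under 0.05. In SKF against Normal Control, Nptx1 and Nptx2, secreted pentraxins that gather AMPA receptors, were called higher (0.43 and 0.55), where Vehicle gave 0.25 and 0.15 without passing; their differences between SKF and Vehicle, 0.18 and 0.40, did not pass, and without Normal Control 4 and 6 the SKF call of Nptx2 was lost (0.48, adjusted p = 0.109).

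**Figure D5:**
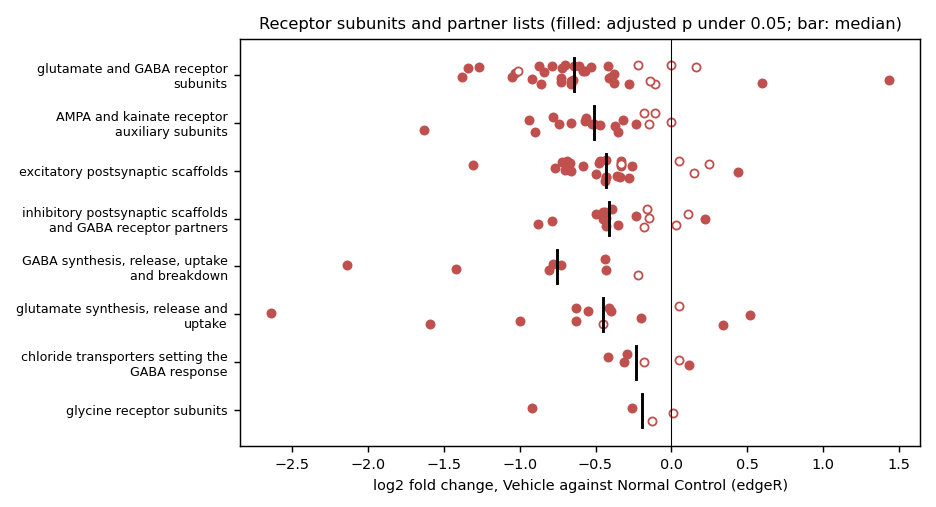
Each point is 1 gene, placed by its log2 fold change in Vehicle against Normal Control (x axis, edgeR) in the row of its list (y axis), filled where the adjusted p is under 0.05; the black bar is the list's median. The receptor subunits have a median of -0.64 and the 7 partner lists medians between -0.75 and -0.20.

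Markers of several cell types also differed in Vehicle, and their part in the result was not tested. Slc1a2, Slc1a3, Slc17a6, Slc17a7, Gad1, Gad2 and Slc32a1 are on both a partner list and a marker list. Over all genes tested, 27.1% were called lower and 26.9% higher. Of 18 general neuron markers, 13 were lower in Vehicle and 0 higher, with a median of -0.40. Their summed TPM ran from 8601 to 11969 in Normal Control, from 6491 to 10200 in Vehicle and from 8233 to 10036 in SKF, and Rbfox3, which marks neuronal nuclei, did not pass at 0.06 (adjusted p = 0.598). Of 9 astrocyte markers 7 fell and Gfap rose, with a median of -0.70. Of 9 oligodendrocyte markers 8 fell, with a median of -0.90, as did 4 of 6 markers of their precursors. Among region and subtype markers, 10 of 12 thalamic, 5 of 8 hippocampal, 6 of 11 interneuron and 3 of 5 cerebellar markers fell. Of 10 striatal markers 1 fell, and of 12 cortical markers 3 fell and 3 rose, no more than the shares over all genes. Of 6 neutrophil markers 6 rose, of 9 microglia and macrophage markers 6 rose and 2 fell, and of 5 endothelial markers 3 rose. Of 6 pericyte and smooth muscle markers 4 fell and 1 rose, of 6 choroid plexus markers 0 passed, and the 3 skeletal muscle markers tested fell. Without Normal Control 4 and 6, 4 interneuron markers fell and 1 rose, and 1 muscle marker fell and 1 rose. In that fit 12 general neuron, 9 oligodendrocyte, 2 cortical and 3 pericyte and smooth muscle markers fell. The other marker counts were unchanged. The thalamic sum ran from 68.9 to 853 in Normal Control, from 74.8 to 184 in Vehicle and from 75.8 to 336 in SKF. Without Normal Control 4 and 6, 27 members were called lower and 3 higher in Vehicle, and 25 and 3 in SKF, the third member called higher being Grik5.

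On the deposited TPM, with limma on log2(TPM + 1), 23 members were lower and 3 higher in Vehicle, the third called higher being Grik5. This scale moved the median of all genes to 0.11 and the share of calls that are higher from 49.8% to 69.5%, and relative to that median the members' median was -0.59. The 5 members that lost their call were Gabra2, Grik2, Grik4, Grin1 and Grm5. In SKF against Normal Control, 22 were lower and 3 higher on this scale, and Gabbr2 (-0.36, adjusted p = 0.0786), Gabra2 (-0.22, adjusted p = 0.104) and Grin2a (-0.34, adjusted p = 0.0875) lost their call.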

How the data were processed

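Poly(A) RNA of 24 rat brain samples was sequenced with a directional kit, per the labels' protocols. The authors deposited whole-number read counts per gene and, for the same genes and samples, TPM, both used as deposited. The build was mRatBN7.2, per the submitters' processing notes. The aligner, the counting program and the use of strand are not given in the sources used. Groups were read from the sample titles.

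All 14421 genes that passed filterByExpr (minimum count 10) were tested on counts with edgeR 4.0.16 in R 4.3.3 (TMM, robust quasi-likelihood F test) in 1 fit of 24 libraries with 21 residual degrees of freedom. The biological coefficient of variation was 16.2%. Adjusted p is Benjamini-Hochberg over all genes tested, threshold 0.05, from edgeR unless another tool is named, and the SE is the log2 fold change divided by the square root of F. CPM is TMM-scaled. Composition values used TPM within a library, with exact two-sided permutation tests (SciPy 1.17.1) adjusted over 9 tests, of which 3 are not reported here. A further 5 genes that the symbol rule finds are likewise not reported and are in no count of members, though they were in the fit. The fit was tested on simulated data in which far fewer genes changed than were called here. That does not test its scaling on these data. Sequences and gene order are from RefSeq, build GRCr8, where 40 members matched by symbol. No list was tested as a set.

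The members and lists were chosen with earlier results of these data known. Members are given in full by rule: the smallest p of each class in Vehicle, those called higher, the 3 with the smallest p in SKF against Vehicle, 5 common partners, and those whose call turns on Normal Control 6. Partner genes are named when they have the 2 smallest p of a list or move against it. Slc12a5 and Slc32a1 are named outside this rule. Grin2d, Grin3a, Gria1 and other members outside the rule are given in brief. Other tools were limma 3.58.1, DESeq2 1.42.0, Python 3.11.15, NumPy 2.4.6, pandas 2.3.3 and Matplotlib 3.10.9. Alternatives were DESeq2, RLE factors, 2 other filters, only the 2 groups compared, limma voom, limma on log2 TPM (pseudocounts 1 and 0.1), the replicate number as a block, counts in place of TPM for ratios, and each library left out in turn. The joint omission of Normal Control 4 and 6 was chosen after seeing the data.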

Additional observations from a re-analysis of the deposited data

Results flagged for a closer look

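In 13 of 114 groups of 8 libraries, 1 library stood far from the rest, with a gap to its nearest neighbour, as a share of the group's range, above the critical value of Dixon's test. Chance gives this in about 1 in 20 groups. In 8 of the 13 that library was Normal Control 6, and the tests in the report are given without it where they turn on it. Its values lay above the other controls for Grm5 at 237 CPM (others 94.3 to 125), Grik5 at 226 (153 to 183), Gabra2 at 117 (65.8 to 84.1), Grik2 at 89.8 (44.4 to 51.0), Gabrg3 at 13.0 (5.83 to 7.81) and Grin3b at 5.96 (1.82 to 3.06). They lay below the other controls for Grm2 at 30.2 CPM (48.7 to 71.6) and Grik4 at 29.4 (46.0 to 58.7).

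The other 5 fell on several libraries. Vehicle 2 was low for Grik5 at 160 CPM (others 186 to 212) and for Grik1 at 4.09 (7.83 to 9.63). In the SKF group, SKF 8 was low for Gabbr2 at 195 CPM (274 to 365), SKF 7 for Grin3a at 6.03 (10.0 to 11.9) and SKF 5 for Grm6 at 0.531 (1.27 to 1.97).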

How the results depend on the processing

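Members called lower numbered 23 to 29 in Vehicle and 22 to 27 in SKF against Normal Control over all alternatives, and 24 of the 30 calls in Vehicle and 22 of the 27 in SKF held in all 35. When only the 2 groups compared were fitted, Gabrr2 did not pass the filter and Grin3b lost its SKF call. Members called higher were then 1 in Vehicle and 0 in SKF. With each library left out in turn they numbered 2 to 3 in Vehicle and 1 to 3 in SKF. In SKF against Vehicle, 0 members were called under any alternative. Of 1713 values of the named members under alternatives, 1626 kept their direction and their side of the threshold, 50 lost a call, 31 gained one and 6 changed sign. All 6 were of Grm8, which was never called. They were 0.00 on log2(TPM + 0.1) in Vehicle, and 5 negative values in SKF, the lowest -0.02, each with 1 library left out. Gria2 passed without Normal Control 5 in both comparisons with the controls, and without SKF 3 in SKF.

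With 1 library left out, the difference in the Grin2a to Grin2b ratio ran from -0.07 to 0.03 in SKF against Normal Control and was never called. The cause of these changes was not tested.

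Replicate numbers recur across groups, but same-numbered samples did not deviate together: over 24 pairs the correlation ran from -0.241 to 0.078, 0 pairs were over 0.1, and 0 samples correlated best with their own number. With the replicate number as a block, 27 members were lower and 2 higher in Vehicle, 25 and 2 in SKF against Normal Control, and 0 in SKF against Vehicle. Depth limits Gabrr2, Gabrq and Grm6, at about 1 CPM, and the 4 members under the filter.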
